A study of Rattus norvegicus with 14 samples.

Results

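The Hox genes of the rat abdominal aorta are described here, chosen by name alone: every row of the deposited gene table whose symbol is Hox, a cluster letter from a to d and a paralogue number. The rule found 25 of the 19357 genes of the table, 10 of the b cluster on chromosome 10, 8 of the c cluster on chromosome 7 and 7 of the d cluster on chromosome 3. RefSeq (assembly GRCr8) lists 39 such genes in the rat, and the Entrez identifiers of all 25 matched it. The other 14, which are the whole a cluster with Hoxc11, Hoxd8 and Hoxd11, were not analysed here.

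Affymetrix gene arrays were run on total RNA from the abdominal aorta of 14 female Wistar rats, 1 array per animal. The 4 non-pregnant rats (NPr) and the 5 healthy pregnant rats (Pr) received saline alone through a cannula in the jugular vein, 14 days after it was placed. For Pr rats this was 2 ml during 1 h. The 5 rats with experimental preeclampsia (ExpPE) were pregnant and received 1 µg lipopolysaccharide (LPS, a part of the bacterial outer membrane) per kg body weight in 2 ml saline during 1 h, 14 days after the cannula was placed. Pregnant rats of both groups were killed on day 20 of pregnancy, and NPr rats on diestrus. All animals carried the cannula, and LPS-infused non-pregnant rats were not on the arrays analysed here, so the ExpPE vs. NPr comparison spans pregnancy and LPS at once. Ages beyond the age matching of the NPr rats are not given in the sources used here. The values are log2 intensities, and the numbers given to the animals only name them.

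The array titles differ between the deposited tables. A second deposited table holds the same values, with a largest gap of 7.2e-10 on the log2 scale, but there the 10 arrays from Pr and ExpPE rats carry each other's titles. The group names in the annotated table were followed throughout, since each array's own name there states the group and the authors' comparison columns carry the same names. Under the other titles every ExpPE vs. Pr difference below changes its sign, and Pr vs. NPr and ExpPE vs. NPr change places.

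Hox genes encode homeodomain transcription factors that lie in clusters. Their order along the chromosome matches the order of the body regions in which the embryo uses them, low paralogue numbers towards the head and high numbers towards the tail. Genes with the same number in different clusters are paralogues, descended from 1 ancestral gene. Adult vascular smooth muscle cells and fibroblasts keep part of this code, so that vessels from different levels of the body differ in their Hox genes. Many Hox proteins bind DNA together with cofactors of the TALE class (Pbx, Meis and Pknox proteins), and retinoic acid sets the expression of many Hox genes in the embryo. Paralogue numbers 1 to 3 are called anterior here, 4 to 8 central and 9 to 13 posterior.

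MicroRNA genes lie inside the clusters, and 3 of them had rows in the table. They were chosen after their values were seen. Their mature sequences from RefSeq (GRCr8) are shown because 2 of them share the seed through which a microRNA pairs with its targets, given in capitals (bases 2 to 8, 5′ to 3′).
rno-miR-10a-5p: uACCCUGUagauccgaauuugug
rno-miR-196a-5p: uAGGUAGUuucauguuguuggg
rno-miR-196c-5p: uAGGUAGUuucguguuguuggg
Mir10a and Mir196c lie on chromosome 10 with the b cluster and Mir196a lies on chromosome 7 with the c cluster. The mature miR-196a and miR-196c differ by 1 substitution outside the seed, A12G, counted from the 5′ end with miR-196a as the reference. In the mouse, miR-196 directs the cleavage of Hoxb8 messenger RNA. The array reads the hairpin or a longer transcript that holds it, not the mature microRNA.

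Intensities of different genes depend on their probes (12 to 26 per Hox gene), so levels were set against genes that an aorta should not use. These were 1191 sensory receptor genes (olfactory, vomeronasal, trace amine and taste receptor symbols). Their median mean intensity was 2.66 on the log2 scale, their 95th percentile 3.91 and their 99th percentile 4.86, while the median of all genes was 5.62. A gene is called above background where its mean over the 14 arrays was above the 95th percentile.

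By this limit 19 of the 25 Hox genes were above background, against 71.9% of all genes. The 6 that were not are Hoxb9, Hoxb13, Hoxc12, Hoxc13, Hoxd3 and Hoxd12. All 10 central genes were above it, as were 4 of the 5 anterior genes and 5 of the 10 posterior genes. Within the posterior genes, 4 of 5 with the numbers 9 and 10 were above background and 1 of 5 with the numbers 12 and 13. The exception was Hoxd13, a limb and urogenital gene in the embryo, at a mean of 3.96, just above the limit of 3.91. Its group means were 3.90 in NPr, 3.89 in Pr and 4.10 in ExpPE rats, so that ExpPE alone was above the limit. Hoxd3 at 3.79 was the nearest gene below the limit.

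With the stricter 99th percentile 13 genes remained, Hoxb2 to Hoxb7, Hoxc4, Hoxc5, Hoxc6, Hoxc8, Hoxc9, Hoxc10 and Hoxd9. The share of all genes above that limit was 59.2%. These 13 and Hoxd4 also lay above the 95th percentile of the receptors of the same array on each of the 14 arrays. In the b cluster the measured genes ran without a gap from Hoxb1 at 4.31 to Hoxb8 at 4.06 and ended there, with Hoxb9 at 3.03. In the c cluster they ran from Hoxc4 at 5.26 to Hoxc10 at 5.66, with Hoxc12 at 3.51 and Hoxc13 at 3.68 below the limit. The d cluster had Hoxd9 as its 1 member over the 99th percentile, at 5.38, and Hoxd1 (4.16), Hoxd4 (4.68) and Hoxd10 (4.14) between both limits. By their means over the 14 arrays, genes above background thus reached number 10 in the c cluster and number 8 in the b cluster. In the d cluster they reached number 10, with Hoxd13 beyond it at the limit. Hoxd10 ranged from 3.42 to 5.54 across the animals, on both sides of the 95th percentile of 3.91. Its group mean was below that limit in NPr (3.83) and above it in Pr (4.58) and ExpPE (3.96). Hoxc11 and Hoxd11 were not analysed, so whether number 11 was above background in the c and d clusters is not known. RefSeq places Hoxc6 over Hoxc5 and Hoxc4, so a signal from shared exons cannot be assigned to 1 of these 3 genes with certainty.

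**Figure D1:**
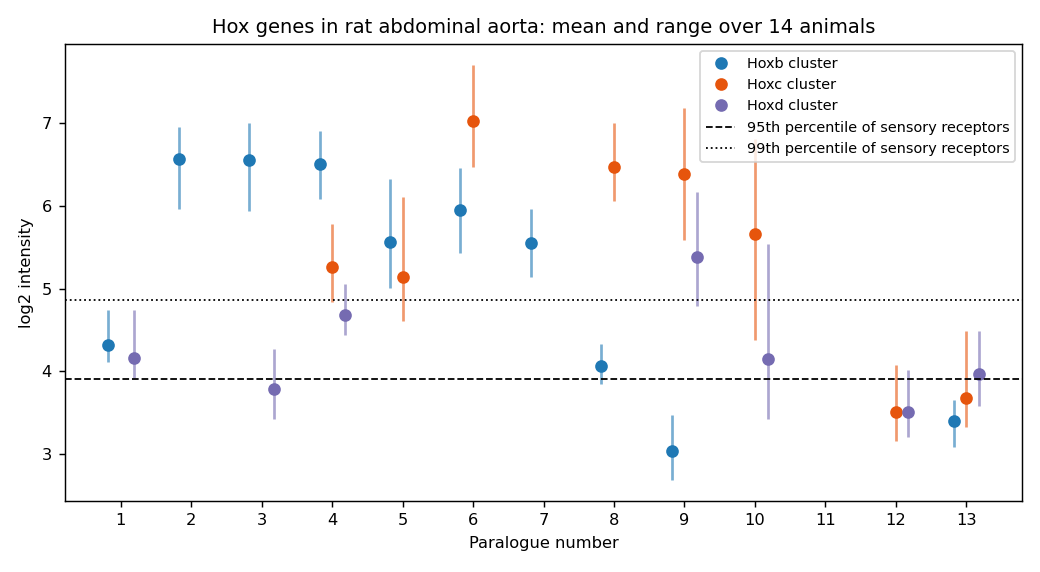
Mean log2 intensity of each Hox gene (point) and its range over the 14 animals (line), by paralogue number and cluster, with the 95th (dashed) and 99th (dotted) percentiles of 1191 sensory receptor genes. All 10 central genes had means above the dashed line, and of the genes numbered 12 and 13 Hoxd13 alone did.

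Of the microRNA genes, Mir10a (mean 2.75) and Mir196a (2.95) lay below background and Mir196c (6.09) above it. Mir196c was 6.72, 5.65, 6.32 and 5.70 in NPr, 5.60, 5.96, 5.70, 5.72 and 6.03 in Pr and 5.90, 7.15, 5.56, 6.86 and 6.46 in ExpPE rats. NPr 1, ExpPE 2, ExpPE 4 and ExpPE 5 had the highest values, and the groups overlapped. ExpPE rats were 0.58 above Pr rats by their means (SE 0.282, adjusted p = 0.574 in limma). The same 4 animals had the highest mean over the sensory receptor genes, 2.94, 3.03, 3.00 and 2.84, where the other 10 arrays lay between 2.63 and 2.73, and the part of this in the Mir196c values was not tested.

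The spread between animals of a group was uneven across the Hox genes. The pooled SD within groups was 0.681 for Hoxc10, 0.591 for Hoxd10, 0.447 for Hoxc5 and 0.432 for Hoxb5, which placed them at percentiles 95.4, 93.1, 85.6 and 84.2 of all genes. For Hoxb13 it was 0.131, at percentile 6.12, and for Hoxb4 0.181, at percentile 21.2. Both paralogues of number 10 were thus the most variable members of their clusters.

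**Figure D2:**
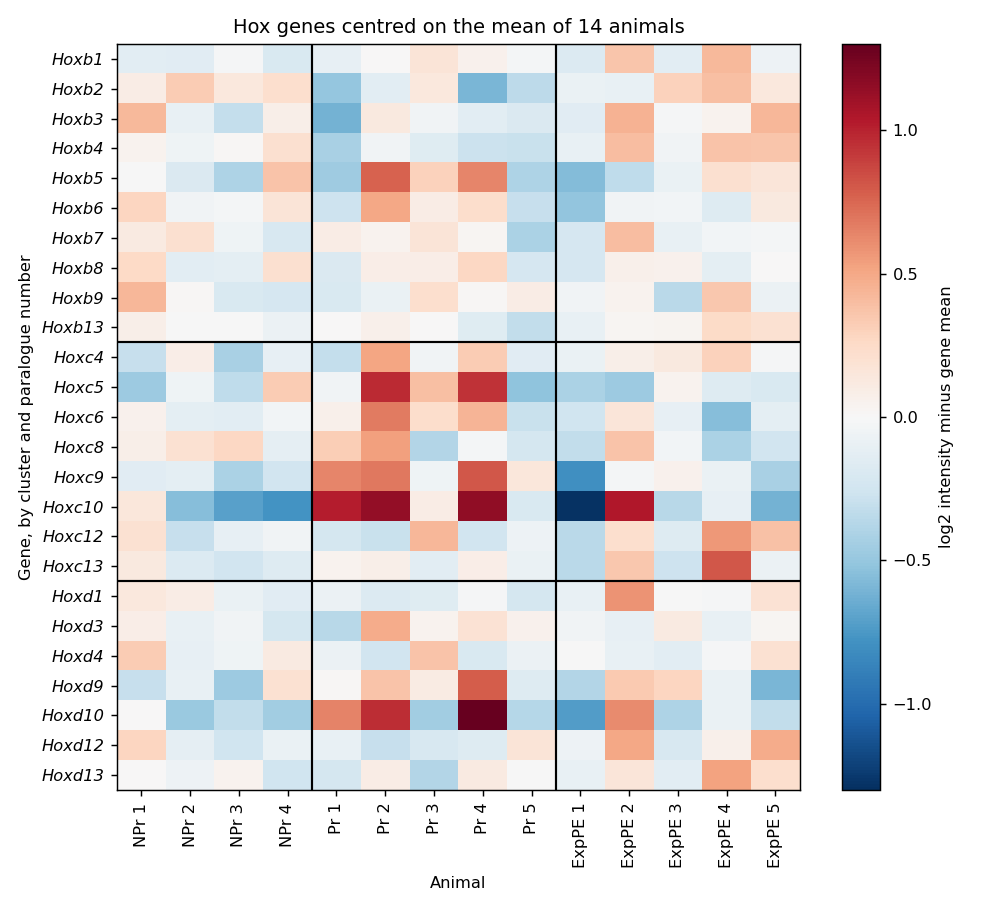
Log2 intensity of the 25 Hox genes minus the mean of each gene over 14 animals, with genes by cluster and paralogue number (rows) and animals by group (columns). The widest departures are those of Hoxc10 and Hoxd10, high in Pr 1, Pr 2, Pr 4 and ExpPE 2 and low in ExpPE 1.

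Groups were compared with limma over all genes. The study's threshold combines a p below 0.05 before adjustment with a change of more than 1.4-fold, and an adjusted p is a Benjamini-Hochberg value over the 19357 genes. The p-values set each difference between group means against the spread between animals. No Hox gene had an adjusted p under 0.05 in any of the 3 comparisons, where 0.212% of all genes did in Pr vs. NPr, 0.0982% did so in ExpPE vs. NPr and 0.00% did so in ExpPE vs. Pr. At a p below 0.05 before adjustment alone the counts of Hox genes were 4, 0 and 6, against 5.35%, 7.61% and 8.48% of all genes. In whole tissue, fewer cells of a type and less RNA per cell cannot be told apart.

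The comparison of Pr with NPr addresses healthy pregnancy. In it, 2 of the 25 Hox genes passed the study's threshold, Hoxc9 and Hoxc10, both higher in Pr and neighbours in the c cluster. Over all genes 3.41% passed it, 2.43% higher and 0.982% lower in Pr, so that 2 of 25 is not far from the background share. By the means 12 of the 25 members were higher in Pr, where 45.4% of all genes were. The median difference was -0.010, against -0.0178 over all genes.

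Hoxc9, a gene of the thoracic level in the embryo, was 6.24, 6.25, 5.97 and 6.14 in the 4 NPr rats. In the 5 Pr rats it was 7.01, 7.07, 6.32, 7.19 and 6.53. It was 5.58, 6.36, 6.44, 6.30 and 5.96 in the 5 ExpPE rats. Every Pr value was above every NPr value, a separation that 2.71% of all genes showed and no other Hox gene in this comparison. Pr 1, Pr 2 and Pr 4 were the highest of the 14 animals, and the ExpPE values lay on both sides of the NPr range. The difference between Pr and NPr was 0.67 on the log2 scale (SE 0.202, 95% interval 0.24 to 1.11, 1.60-fold, adjusted p = 0.394 in limma), and it passed the study's threshold with any 1 animal left out, between 0.58 and 0.80.

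Hoxc10, which marks the lumbar level and the hindlimb in the embryo, was 5.81, 5.11, 4.96 and 4.89 in NPr rats. The 5 Pr rats had 6.68, 6.81, 5.75, 6.81 and 5.46. The 5 ExpPE rats had 4.38, 6.70, 5.30, 5.56 and 5.05. Pr 1, Pr 2, Pr 4 and ExpPE 2 stood above the other 10 animals, with a gap of 0.876 between 5.81 and 6.68, and the groups overlapped. Pr was 1.12 above NPr (SE 0.407, 95% interval 0.25 to 1.98, 2.17-fold, adjusted p = 0.647 in limma), and between 0.99 and 1.33 with any 1 animal left out, always past the study's threshold.

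Hoxd10, the paralogue of Hoxc10 on chromosome 3, was chosen after its values were seen. It was 4.15, 3.67, 3.83 and 3.69 in NPr, 4.79, 5.11, 3.69, 5.54 and 3.77 in Pr and 3.42, 4.75, 3.74, 4.06 and 3.83 in ExpPE rats. The same 4 animals as for Hoxc10 were the highest, all 10 others were at or below 4.15, and ExpPE 1 was again the lowest. The Pr vs. NPr difference of 0.75 (SE 0.357, 95% interval -0.016 to 1.51, adjusted p = 0.937 in limma) did not pass, and it passed the study's threshold without Pr 3 or without Pr 5. The background limit of 3.91 runs through these values, with 8 of the 14 animals below it.

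Hoxd9, the member of the d cluster with the highest mean and the neighbour of Hoxd10, was 5.08, 5.28, 4.91 and 5.58 in NPr, 5.40, 5.75, 5.49, 6.17 and 5.22 in Pr and 5.00, 5.72, 5.66, 5.29 and 4.79 in ExpPE rats. The Pr vs. NPr difference was 0.39 (SE 0.230, adjusted p = 1 in limma) with overlapping groups. Hoxb9 was at background (mean 3.04 in both groups). For the 5 genes numbered 9 and 10 the median difference was 0.67, with all 5 above 0 (Hoxb9 by 0.0014) and 2 past the threshold. This set was not planned. Over all 10 posterior genes the median was 0.058, with 6 above 0. Whether posterior genes differ from the other Hox genes in this was not tested.

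Promoters were in the RefSeq table used here for 9 of the 25 members. Those of Hoxd10, Hoxd9 and Hoxd4 are shown (GRCr8, 250 bases before to 50 after the start, 5′ to 3′ on the plus strand), since these 3 genes of the d cluster were the most variable member, its adjoining gene and a member with little spread (pooled SD 0.195). Capitals mark matches of the motifs searched.
Hoxd10, chr3:80001697-80001996: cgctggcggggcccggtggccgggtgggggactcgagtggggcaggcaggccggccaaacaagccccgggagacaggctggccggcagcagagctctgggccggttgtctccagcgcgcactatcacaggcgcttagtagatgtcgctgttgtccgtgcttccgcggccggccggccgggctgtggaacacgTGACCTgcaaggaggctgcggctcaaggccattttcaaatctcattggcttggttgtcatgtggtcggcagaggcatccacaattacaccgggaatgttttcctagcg
Hoxd9, chr3:80007756-80008055: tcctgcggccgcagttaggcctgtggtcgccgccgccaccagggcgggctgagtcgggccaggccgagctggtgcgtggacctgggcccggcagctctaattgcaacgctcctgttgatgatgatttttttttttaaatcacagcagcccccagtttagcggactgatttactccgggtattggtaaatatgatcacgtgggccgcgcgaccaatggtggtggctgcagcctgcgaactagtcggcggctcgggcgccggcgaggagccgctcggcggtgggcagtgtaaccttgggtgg
Hoxd4, chr3:80021636-80021935: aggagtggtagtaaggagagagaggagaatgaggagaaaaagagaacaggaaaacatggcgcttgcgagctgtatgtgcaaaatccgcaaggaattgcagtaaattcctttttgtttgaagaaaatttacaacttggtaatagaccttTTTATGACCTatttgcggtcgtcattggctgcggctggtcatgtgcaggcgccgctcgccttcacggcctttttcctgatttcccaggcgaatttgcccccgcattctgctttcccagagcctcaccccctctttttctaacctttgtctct
All motifs were searched on both strands. The half-site of retinoic acid receptors was searched as AGGTCA. It was found in the Hoxd10 and Hoxd4 windows, and in Hoxc4 among the other members with a promoter, so in 3 of 9, against 16.2% of 33469 promoters of the same length. A site of Cdx and posterior Hox proteins, searched as TTTATG, was found in Hoxd4 alone of the 9 members, where it overlaps the half-site, and in 12.7% of all promoters. The TATA box was searched by the letters TATAAA and found in Hoxd13 alone of the 9, and in 14.2% of all promoters. The composite site of Pbx with Hox proteins (TGATTNAT, in 3.18% of all promoters) was in none of the 9. The same held for the homeodomain palindrome TAATTA, in 5.36% of all promoters. The Hoxd10 and Hoxd9 windows had 64.7% and 62.7% G and C with 24 and 27 CpG pairs, and the Hoxd4 window 47.3% with 12, where the median promoter had 51.7% and 7. A match is a description of these letters and no evidence of binding.

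**Figure D3:**
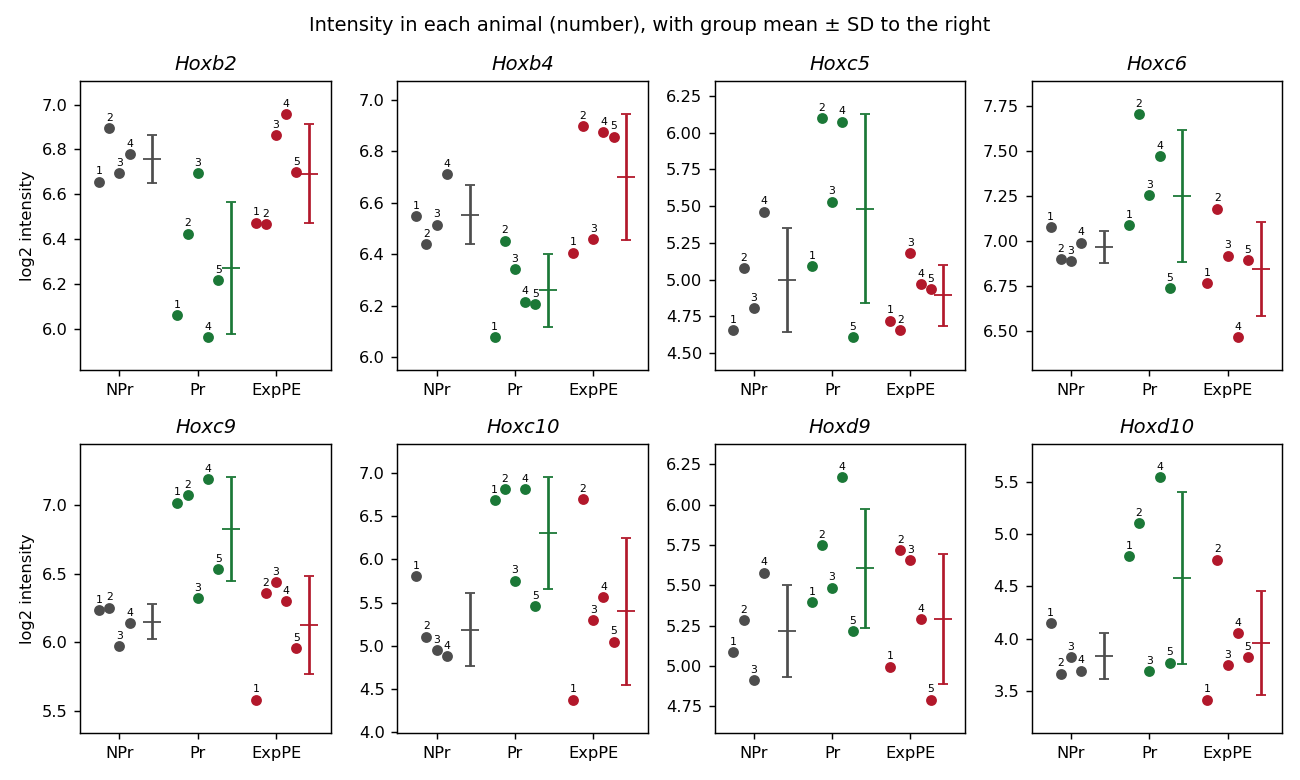
Log2 intensity of 8 Hox genes in each animal (points, numbered within NPr, Pr and ExpPE), with the mean ± SD of each group to the right of its points. For Hoxc9 all 5 Pr points lie above the 4 NPr points, and for Hoxc10 and Hoxd10 the points of Pr 1, Pr 2, Pr 4 and ExpPE 2 stand above the rest.

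At the anterior end of the b cluster the means of 3 of 4 genes were lower in Pr rats. Hoxb2, a hindbrain gene in the embryo and the b member with the highest mean, was 6.66, 6.90, 6.70 and 6.78 in NPr rats. It was 6.06, 6.43, 6.70, 5.97 and 6.22 in Pr rats, of which Pr 3 alone reached the NPr range. ExpPE rats had 6.47, 6.47, 6.86, 6.96 and 6.70, across that range. The Pr vs. NPr difference of -0.48 (SE 0.155, 95% interval -0.81 to -0.15, adjusted p = 0.472 in limma) was 1.397-fold and so fell just short of the study's fold limit. It passed that threshold when NPr 1 (-0.52), NPr 3 (-0.50), Pr 2 (-0.52) or Pr 3 (-0.59) was left out.

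Hoxb4, which acts in blood stem cells and the cervical region, was 6.55, 6.44, 6.51 and 6.71 in NPr, 6.08, 6.45, 6.34, 6.22 and 6.21 in Pr and 6.41, 6.90, 6.46, 6.87 and 6.86 in ExpPE rats. The Pr vs. NPr difference was -0.29 (SE 0.132, 95% interval -0.58 to -0.012, adjusted p = 0.906 in limma), 1.23-fold and so under the study's fold limit. It was -0.20 for Hoxb3 (SE 0.183) and 0.14 for Hoxb1 (SE 0.145). Over Hoxb1 to Hoxb4 the median difference was -0.25, with 3 of 4 below 0. This set was not planned. Over the 5 anterior genes the median was -0.13, with 3 below 0.

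In ExpPE vs. NPr, 0 of the 25 Hox genes passed the study's threshold in limma, where 3.13% of all genes did (1.98% higher and 1.14% lower in ExpPE), and 0 had groups that did not overlap (2.07% of all genes). The differences of the 25 members lay between -0.23 (Hoxc8) and 0.27 (Hoxc4), with a median of 0.075 against 0.018 over all genes. By the means 14 of the 25 were higher in ExpPE, where 53.1% of all genes were. The smallest p belonged to Hoxc4, Hoxb1 and Hoxd13. Hoxc4, a cervical gene in the embryo, was 4.96, 5.35, 4.84 and 5.15 in NPr and 5.18, 5.33, 5.39, 5.56 and 5.24 in ExpPE rats, a difference of 0.27 (SE 0.174). Pr rats had 4.95, 5.78, 5.22, 5.59 and 5.12. The groups overlapped.

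Hoxb1, a hindbrain gene in the embryo, was 4.18, 4.16, 4.30 and 4.11 in NPr, 4.21, 4.32, 4.48, 4.36 and 4.28 in Pr and 4.13, 4.67, 4.18, 4.74 and 4.24 in ExpPE rats, and ExpPE 2 and ExpPE 4 were the highest (ExpPE vs. NPr 0.21, SE 0.145). That difference was 0.12 without ExpPE 4 and 0.14 without ExpPE 2. Hoxd13 was 3.97, 3.90, 4.01 and 3.71 in NPr, 3.74, 4.06, 3.58, 4.09 and 3.96 in Pr and 3.86, 4.12, 3.83, 4.49 and 4.18 in ExpPE rats (ExpPE vs. NPr 0.20, SE 0.158, and 0.10 without ExpPE 4). After quantile normalization once more the differences were 0.074 for Hoxb1 and 0.057 for Hoxd13. The adjusted p of these 3 genes was 0.66 or higher in limma. An interval shows what this size of study leaves possible: for Hoxc10 the ExpPE vs. NPr difference was 0.21, with a 95% interval from -0.66 to 1.08.

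All 5 genes numbered 12 and 13 were higher in ExpPE than in NPr, by a median of 0.20, and than in Pr, by 0.21, and none passed the study's threshold. The animals with the highest mean over these 5 genes were ExpPE 4, ExpPE 2, ExpPE 5 and NPr 1, at 0.443, 0.25, 0.243 and 0.137 above the mean of all 14. They are the 4 animals with the highest receptor means, and 4 of the 5 genes lay below the background limit. The part of that in these differences was not tested. This set of 5 genes was not planned. Of all 10 posterior genes, 8 were higher in ExpPE than in NPr (median 0.16) and 5 than in Pr (median 0.035).

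In ExpPE vs. Pr, 3 of the 25 Hox genes passed the study's threshold, Hoxc9, Hoxc10 and Hoxc5, all lower in ExpPE and all of the c cluster. Over all genes 2.72% passed it, 1.72% higher and 1.00% lower in ExpPE. By the means 13 of the 25 were higher in ExpPE, where 53.6% of all genes were. No gene of the table reached an adjusted p under 0.05. The comparison shares its Pr animals with Pr vs. NPr, so the directions of both are not independent. No Hox gene had groups that did not overlap here, where 1.13% of all genes did.

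Hoxc9 was 0.70 lower in ExpPE (difference -0.70, SE 0.191, 95% interval -1.10 to -0.29, 1.62-fold, adjusted p = 0.574 in limma). ExpPE 2 and ExpPE 3 were above Pr 3, and so the groups overlapped. It passed the study's threshold with any 1 animal left out, between -0.82 and -0.56. The Hoxc10 difference was -0.91 (SE 0.383, 95% interval -1.73 to -0.087, 1.87-fold, adjusted p = 0.574 in limma). It no longer passed without ExpPE 1, ExpPE 3, ExpPE 5, Pr 1, Pr 2 or Pr 4, with differences from -0.88 to -0.65.

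Hoxc5, a central gene between Hoxc4 and Hoxc6, was 5.09, 6.10, 5.53, 6.08 and 4.61 in Pr and 4.72, 4.66, 5.18, 4.97 and 4.94 in ExpPE rats. NPr rats had 4.66, 5.08, 4.80 and 5.46. Pr 2 and Pr 4 were the highest and Pr 5 the lowest of the 14. The difference was -0.59 (SE 0.261, 95% interval -1.15 to -0.032, adjusted p = 0.574 in limma), and it no longer passed without ExpPE 1, ExpPE 2, ExpPE 4, ExpPE 5, Pr 2, Pr 3 or Pr 4, with differences from -0.61 to -0.43. In a fit of only the ExpPE and Pr animals it did not pass either.

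Hoxc6, the c member with the highest mean, was 7.08, 6.90, 6.89 and 6.99 in NPr, 7.09, 7.71, 7.26, 7.47 and 6.74 in Pr and 6.77, 7.18, 6.92, 6.47 and 6.89 in ExpPE rats. The ExpPE vs. Pr difference was -0.41 (SE 0.167, 95% interval -0.76 to -0.049), under the fold limit. In the other direction the difference was 0.44 for Hoxb4 (SE 0.125, 95% interval 0.17 to 0.71) and 0.42 for Hoxb2 (SE 0.146, 95% interval 0.11 to 0.73), both with an adjusted p of 0.574 in limma and under the fold limit. Hoxb4 passed the study's threshold without ExpPE 1 (0.51), ExpPE 3 (0.50) or Pr 2 (0.49), and Hoxb2 without Pr 3 (0.52). With arrays centred on the receptor mean the differences were 0.32 for Hoxb4 and 0.30 for Hoxb2. After quantile normalization once more they were 0.50, past the threshold, and 0.48. The highest Hoxb4 values were those of ExpPE 2, ExpPE 4 and ExpPE 5, which also had high receptor means. What the receptor means contribute to these differences was not tested. All 4 genes from Hoxb1 to Hoxb4 were higher in ExpPE than in Pr by their means (median 0.37), and all 5 numbered 9 and 10 were lower (median -0.62). Of those 5, Hoxb9 was at background and differed by -0.024. Neither set was planned, unlike the 3 regions. By region, 4 of 5 anterior genes were higher in ExpPE (median 0.26), 4 of 10 central genes (median -0.11) and 5 of 10 posterior genes (median 0.035). The medians of the whole clusters were 0.043 for b, -0.29 for c and 0.036 for d, and 0.0207 over all genes.

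**Figure D4:**
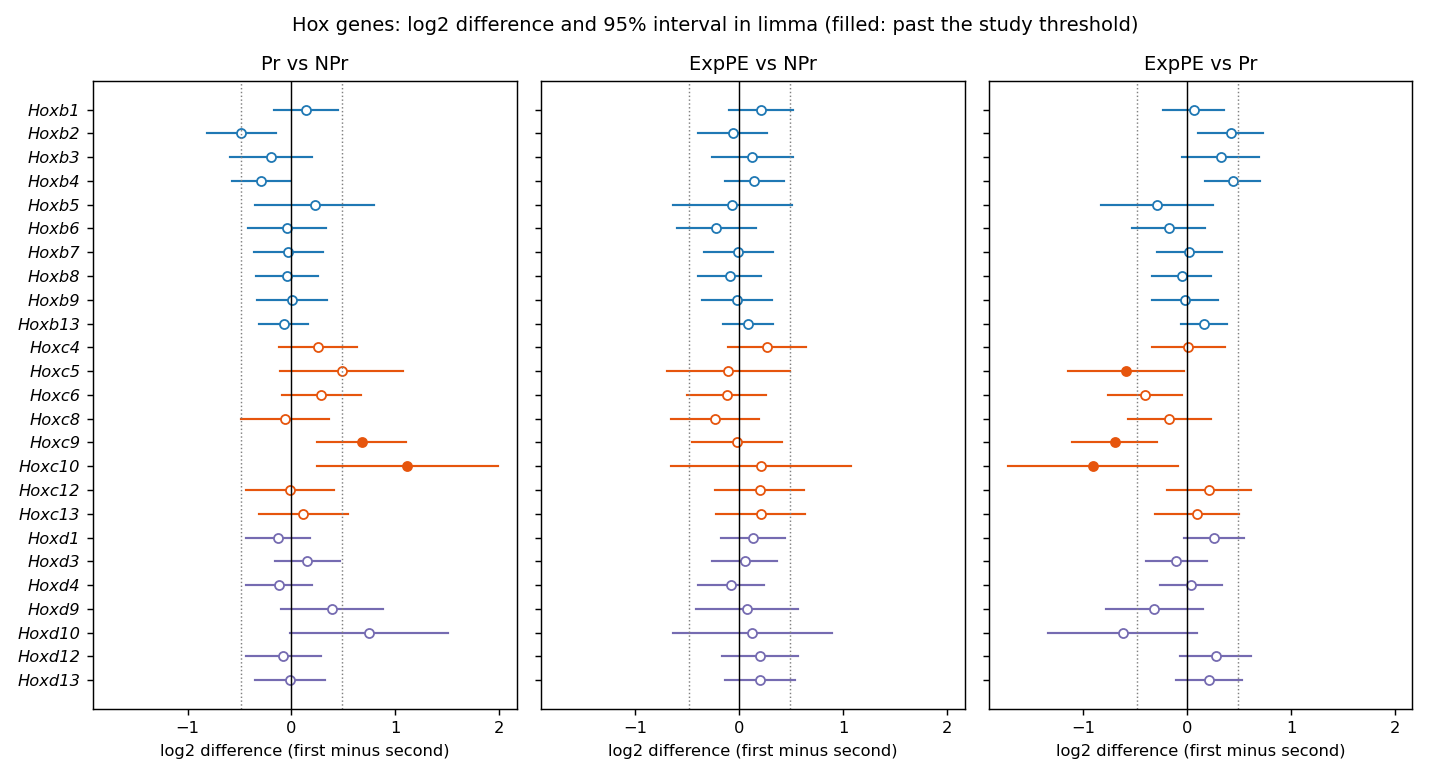
Log2 difference of each Hox gene (point) with its 95% interval (line) in the 3 comparisons, where filled points passed the study's threshold and dotted lines mark a 1.4-fold change. Filled points are Hoxc9 and Hoxc10 on the left, none in the middle, and Hoxc5, Hoxc9 and Hoxc10 on the right.

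The order of the animals was shared by many Hox genes, a pattern noticed after the values were seen. Pr 2 and Pr 4 were the highest 2 of the 14 animals for 9 of the 25 genes (Hoxb5, Hoxc4, Hoxc5, Hoxc6, Hoxc9, Hoxc10, Hoxd3, Hoxd9 and Hoxd10), against 2.19% of all genes. ExpPE 1 was the lowest for 7 of them (Hoxb5, Hoxb6, Hoxc9, Hoxc10, Hoxc12, Hoxc13 and Hoxd10), against 13.1% of all genes. Of the genes named, Hoxd3, Hoxc12 and Hoxc13 were below background. ExpPE 1 also had the lowest receptor mean of the 14 arrays, 2.63 with NPr 2 next at 2.64, and its part in this order was not tested. These shares are descriptions, because neighbouring genes of 1 cluster and genes of 1 array are not independent.

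By Pearson's r across the 14 animals, Hoxd10 stood first in likeness to Hoxc10 among the 19356 other genes (r = 0.919, Spearman's rho = 0.811). Syndig1, named after its values were seen, had the same r to 3 digits and a higher rho of 0.934, so the order depends on the measure. Cd209f (rho = 0.916) and Stil (rho = 0.868), also chosen after their values were seen, were above Hoxd10 by rho as well. Hoxc9 ranked 9th of them (r = 0.87, rho = 0.829), Hoxc6 came at place 187 (r = 0.707) and Hoxd9 at place 249 (r = 0.683). After subtraction of the group means r was 0.888 for Hoxd10, at place 16, and 0.797 for Hoxc9, at place 125. The 4 animals above the gap in Hoxc10 carry much of the likeness of Hoxd10. Among the 10 others r was 0.72 and rho 0.491 for Hoxd10, and r was 0.784 and rho 0.673 for Hoxc9. In the same 10 animals r and rho were 0.779 and 0.818 for Syndig1, 0.782 and 0.879 for Cd209f and 0.793 and 0.648 for Stil. No p is given, since the genes were ranked among all genes of the same arrays.

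Other genes of position were counted by list. Of the 9 TALE cofactors all were above background and 0 passed the study's threshold in any comparison in limma. Meis1, a partner of Hox proteins on DNA, had a mean of 8.58 and was 8.25, 8.69, 8.24 and 9.06 in NPr, 8.12, 9.09, 8.83, 8.90 and 8.70 in Pr and 8.07, 8.16, 8.61, 8.56 and 8.85 in ExpPE rats. The groups overlapped. The Meis1 difference was 0.17 in Pr vs. NPr (SE 0.224) and -0.28 in ExpPE vs. Pr (SE 0.211).

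Of 16 measured genes of the retinoic acid pathway all were above background. Cyp26c1, an enzyme that breaks down retinoic acid, was lower in Pr than in NPr (-0.49, SE 0.202, adjusted p = 0.818 in limma) and was the 1 gene of the list to pass the study's threshold there. Cyp26a1, of the same enzyme family, was higher in ExpPE than in Pr (0.55, SE 0.177, adjusted p = 0.574 in limma) and was again the 1 gene to pass. Both had means close to the background limit, 3.95 and 3.93. The highest Cyp26a1 values were 4.49 in ExpPE 2, 4.41 in ExpPE 1, 4.38 in NPr 1, 4.23 in ExpPE 4 and 4.16 in ExpPE 5. These animals except ExpPE 1 also had the highest receptor means, and ExpPE 1 had the lowest. The part of the receptor means in the Cyp26a1 values was not tested. None of the 16 passed in ExpPE vs. NPr. The receptors Rara, Rarb and Rarg were measured at means of 8.03, 6.98 and 7.65, and none passed.

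Polycomb and Trithorax proteins keep Hox genes silent or active. All 21 measured genes of that list were above background and 0 passed the study's threshold in any comparison in limma. Of 6 measured ParaHox genes and cluster neighbours 2 were above background (Cdx1 and Gsx1) and 0 passed. Evx2, which adjoins the Hoxd13 end of the d cluster, was at background (mean 3.50). Of 10 measured forebrain and head factors 6 were above background and 0 passed in any comparison.

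Of 12 factors of the heart and aortic arch 10 were above background. Hand2 was higher in ExpPE than in NPr (0.73, SE 0.260, adjusted p = 0.64 in limma), and Hand1 was higher in ExpPE than in Pr (0.93, SE 0.333, adjusted p = 0.574 in limma). Both are made by sympathetic or heart precursors in the embryo. Hand1 was 6.93 in ExpPE 1 and 5.83 in ExpPE 2 and between 4.34 and 5.07 in the 12 others. Those 2 animals also had the highest mean over 9 markers of sympathetic neurons and chromaffin cells, 8.48 and 7.35 against 3.79 to 5.84 in the 12 others, and the part of these cells in the Hand1 values was not tested.

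Of 25 trunk and limb factors 17 were above background, and Emx2, a factor of the urogenital system, forebrain and shoulder, was the 1 to pass. It was 2.52, 2.75, 2.34 and 2.37 in NPr, 3.10, 3.83, 2.81, 4.99 and 2.64 in Pr and 2.49, 3.07, 2.68, 2.80 and 2.56 in ExpPE rats. Its highest 4 animals were those of Hoxc10, but Pr 4 alone was above the 95th percentile of the receptors. It passed in Pr vs. NPr (0.98, SE 0.360, adjusted p = 0.655 in limma) and in ExpPE vs. Pr (-0.75, SE 0.340).

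Isl1, a factor of the second heart field and of sympathetic neurons, was chosen after its values were seen, because its order ran against that of Hoxc10. It was 4.66, 5.34, 4.81 and 5.10 in NPr, 4.17, 3.64, 4.98, 4.12 and 5.05 in Pr and 6.10, 4.54, 5.07, 4.58 and 4.71 in ExpPE rats. The 4 animals highest for Hoxc10 were the lowest 4 for Isl1, and ExpPE 1 was the highest. The differences did not pass and were -0.58 in Pr vs. NPr (SE 0.339) and 0.61 in ExpPE vs. Pr (SE 0.320).

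**Figure D5:**
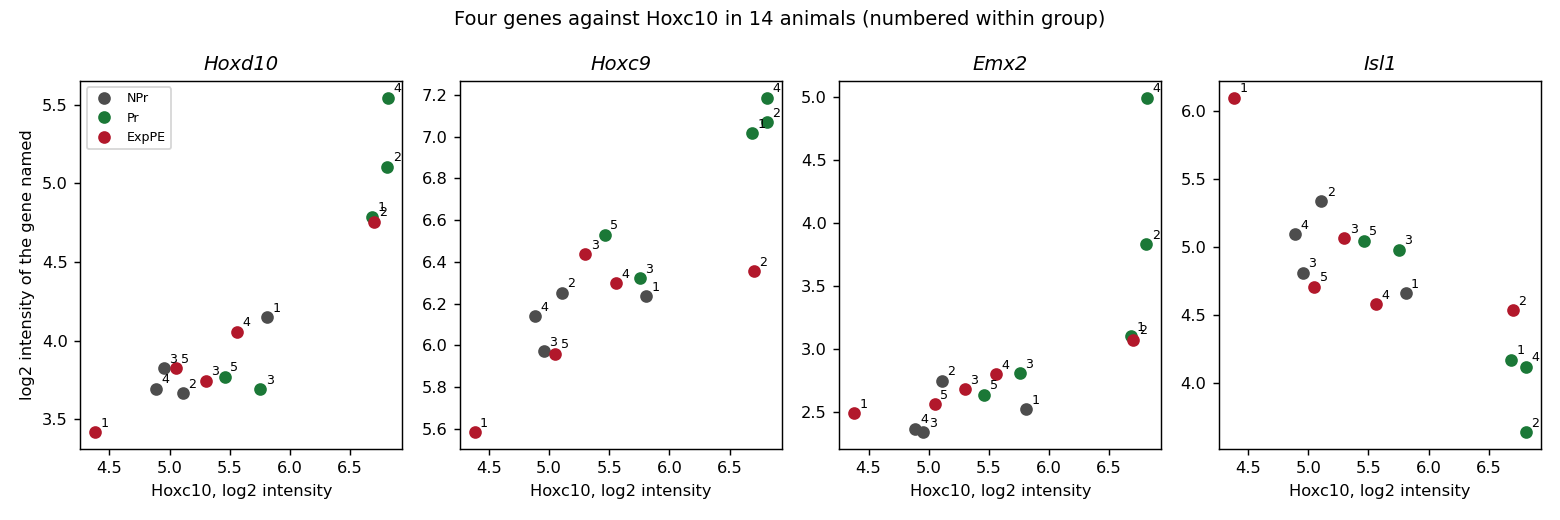
Log2 intensity of Hoxd10, Hoxc9, Emx2 and Isl1 (vertical axes) against that of Hoxc10 (horizontal axes) in 14 animals, coloured by group and numbered within it. Pr 1, Pr 2, Pr 4 and ExpPE 2 lie to the right of a gap of 0.876 and have the 4 highest Hoxd10 and Emx2 values and the 4 lowest Isl1 values.

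The makeup of the samples differed between animals. The mean over 6 smooth muscle markers lay between 10.51 and 12.1 in all animals, so the tissue carried the defining genes of its label. The mean over 10 markers of skeletal muscle fibres was 11.39 in Pr 1, 10.23 in ExpPE 2 and 9.76 in ExpPE 1, and 4.89 in Pr 2 and 5.03 in Pr 4. Pr 1 and ExpPE 2 had the highest of these means, and Pr 2 and Pr 4 lay within the NPr range of 4.62 to 8.25. The part of skeletal muscle in the Hox values was not tested. The mean over 5 fibroblast markers was highest in Pr 2 (11.54) and Pr 4 (11.53) and lowest in ExpPE 1 (10.42), with ranges of 10.81 to 11.22 (NPr), 10.97 to 11.54 (Pr) and 10.42 to 11.26 (ExpPE). All 5 were higher in Pr than in NPr by their means (Dcn by 0.013), where 45.4% of all genes were higher, with Pdgfra past the study's threshold. The macrophage markers Cd68 (0.92) and Cd163 (1.03) also passed it, higher in Pr. The brown adipocyte markers Ucp1 (-2.13) and Otop1 (-1.95) passed it lower in Pr. No marker of the other cell type lists passed in Pr vs. NPr. The part of fibroblasts, macrophages or brown adipocytes in the Hox values was not tested. Of the markers of kidney tubule 4 of 5 were at background (Umod, Slc34a1, Slc12a1 and Lrp2), as were 2 of 3 measured markers of adrenal cortex (Cyp11a1 and Cyp11b2) and 2 of 3 of mesothelium (Upk3b and Lrrn4) by their means over all animals. The mean over the 3 mesothelial markers, which include Msln, was nevertheless 5.59 in ExpPE 1 and 5.40 in Pr 3, against 3.17 to 4.55 in the 12 other animals. Upk3b was 4.82 and 5.09 in these animals and Lrrn4 was 5.83 and 5.28. The part of mesothelium in the Hox values was not tested.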

How the data were processed

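The authors normalized Affymetrix gene arrays of 14 rat aortas by robust multichip average (RMA, version not given) with quantile normalization, with probes assigned to Entrez genes by a custom annotation. They deposited linear intensity values per gene and array, and log2 was taken here with no filter, no pseudocount and no further normalization. Of the per-animal columns 0 were left out. Columns of the authors' own fold changes, p-values and q-values were not used. Groups came from the column names of the annotated table.

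The 19357 genes were fitted with limma 3.58.1 in R 4.3.3, 1 mean per group over all arrays, with an intensity trend in the prior variance and Benjamini-Hochberg adjustment. The methods call the test paired but name no pairing variable. The fit was tested on simulated data. Tables and figures used Python 3.11.15, pandas 2.3.3 and matplotlib 3.10.9. The number of animals limits precision.

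Values of every animal are given for Hox genes past the study's threshold, the 3 with the smallest p in each comparison and the member with the highest mean in each cluster. Of each other list, at most 4 genes past the threshold per comparison are named, and the 2 cofactors with the highest mean, of which 1 is not reported here. Genes named for other reasons were chosen after their values were seen. The members and lists were chosen with earlier results of these data known. Alternatives were the prior variance, the samples in the fit, a replicate block, array weights, filters on low values, the scaling of arrays, a pseudocount of 8, the other table and each animal left out.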

Additional observations from a re-analysis of the deposited data

Results flagged for a closer look

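In 75 sets of values (25 Hox genes in 3 groups) the most extreme animal was set against its nearest neighbour by Dixon's ratio, where chance marks about 1 in 20. In Pr rats, Hoxb7 was 5.14 in animal 5 with the nearest animal at 5.57, a ratio of 0.747 against a critical value of 0.71. Hoxd4 was 5.05 in Pr animal 3 with the nearest at 4.61, a ratio of 0.721. These 2 of 75 are no more than chance would mark.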

How the results depend on the processing

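Of 324 values under other settings, 275 kept their direction and their side of the threshold, or stayed within 1.5 times for counts. The titles of the other table, which were not followed, are given as an alternative only. With them the count of Hox genes past the study's threshold was 0 in Pr vs. NPr and 2 in ExpPE vs. NPr. The Pr vs. NPr difference of Hoxc9 was then -0.024 and the ExpPE vs. NPr difference of Hoxd13 -0.010. ExpPE vs. Pr became 0.70 for Hoxc9, 0.91 for Hoxc10, 0.59 for Hoxc5, -0.44 for Hoxb4 and -0.42 for Hoxb2, by construction. For Pr vs. NPr the count of 2 became 5 with array weights, where Hoxc10 had an adjusted p of 0.0456, and 4 after quantile normalization once more. For ExpPE vs. Pr the count of 3 became 6 with array weights, 5 after quantile normalization once more and 5 with arrays centred on the receptor mean. The cause was not tested. With each animal left out the counts ranged from 2 to 4 in Pr vs. NPr (4 without Pr 3 or Pr 5), stayed at 0 in ExpPE vs. NPr, and ranged from 1 to 5 in ExpPE vs. Pr (1 without ExpPE 5 or Pr 4, 5 without Pr 5). The count above background was 19 with each animal left out, 21 at the 90th percentile of the receptors and 14 when every array had to pass. Hoxc9 and Hoxc10 passed in Pr vs. NPr in every alternative run except the other table.

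With the replicate number as a block the count was 5 in Pr vs. NPr. The numbers do not pair the animals: over 13 same-numbered pairs the correlation of deviations lay between -0.398 and 0.395, 7 were over 0.1, and 1 of 14 animals was closest to its own number.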
